A study of Homo sapiens with 15 samples.

Results

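The genes examined were 10 regulators and markers of epithelial-mesenchymal transition: the transcription factors SNAI1, SNAI2, ZEB1, ZEB2, TWIST1 and TWIST2, the mesenchymal proteins VIM and FN1, and the epithelial splicing regulators ESRP1 and ESRP2. They were chosen by name, and every array probe whose accession belongs to 1 of them was taken. This gave 15 probes out of 50599 probes on the array, and 10 genes out of 20499 that could be named. Of the 15 probes, 7 were bright enough to be tested, and these 7 belonged to 6 of the 10 genes.

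The cells were SCC13, a line of keratinocytes from a squamous cell carcinoma of the skin. SCC13-TLR4 cells were stably transfected with pUNO-TLR4GFP, a plasmid carrying TLR4 (the receptor for bacterial lipopolysaccharide, LPS) with a GFP tag, and SCC13-pUNO cells with the pUNO control plasmid. Both lines were grown under blasticidine, and for SCC13-TLR4 the sorted fraction with the brightest GFP was used. Gene expression was measured on 15 single-colour arrays: 4 of untreated SCC13-pUNO, 3 of untreated SCC13-TLR4, and 4 of each line after 24 h with 10 μg/ml ultrapure LPS. Nothing in the labels says that the replicates came from separate cultures, so the p-values measure only the spread between these samples, which may be technical.

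In epithelial-mesenchymal transition, epithelial cells lose their junctions and take up a motile, spindle-shaped form. The SNAI, ZEB and TWIST transcription factors drive it by binding E-boxes in DNA and repressing epithelial genes such as CDH1, which encodes E-cadherin. VIM, an intermediate filament protein, and FN1, an extracellular matrix glycoprotein, rise in cells that have gone through it, whereas ESRP1 and ESRP2 keep transcripts such as FGFR2 and CD44 in their epithelial splice forms. In squamous cell carcinoma the programme is known for its link with invasion.

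Levels are given as log2 intensity over each array's 75th percentile, so that 0 is the intensity of the 75th percentile spot. A probe counted as detected on an array where the scanner software marked it as well above background. The faintest detected probe of an array lay between -4.63 and -3.89 on this scale, and the median undetected probe between -6.62 and -5.87. The level of one probe cannot be set against that of another, so each gene is compared with itself only.

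The transfected gene checked the labels. TLR4 stood at 3.19, 3.04 and 3.07 in untreated SCC13-TLR4 and at 3.08, 3.19, 2.84 and 3.02 in SCC13-TLR4 with LPS. In SCC13-pUNO with LPS it stood at -6.19, -6.26, -6.09 and -4.74, not well above background on any array. Among the arrays labelled untreated SCC13-pUNO it stood at -3.80, 3.04, -6.40 and -5.72, with the first 2 well above background. These are values of 1 probe. The other TLR4 probe was detected on 0 of 15 arrays, those of SCC13-TLR4 included, so it could not serve as a check. Replicate 2 among the arrays labelled untreated SCC13-pUNO thus had a TLR4 level inside the range of the SCC13-TLR4 arrays and goes against its label. The differences between groups, for 1 probe of each tested gene, and the correlations that rest on it are given with and without it. For the differences between slides, only whether the calls were kept without it is given. The arrays also came from 2 slides, with 8 arrays on slide 1 and 7 on slide 2. Untreated SCC13-pUNO had 3 arrays on slide 1 and 1 on slide 2, untreated SCC13-TLR4 had 1 and 2, and both LPS groups had 2 and 2.

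Keratinocyte markers were detected, and fibroblast markers mostly were not. Of 10 keratinocyte markers, 9 were detected on all 15 arrays, among them KRT5, KRT14 and TP63, and KRT6A was detected on 7. Of 8 fibroblast markers, 7 were detected on no array and COL1A1 on 6. Single markers of other cell types were detected throughout, namely PMEL of melanocytes, PTPRC, CD68 and CD14 of leukocytes and CDH5 of endothelium. The other 7 markers of those cell types were detected on 0 to 10 arrays, and the part of such transcripts in any result was not tested.

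The splicing regulators were the epithelial side of the set, and both were detected on all 15 arrays. ESRP2, which is carried by 10 spots per array, was at 4.51, 4.33, 4.36 and 4.28 in untreated SCC13-pUNO, at 4.48, 4.17 and 4.18 in untreated SCC13-TLR4, at 4.57, 4.34, 4.36 and 4.34 in SCC13-pUNO with LPS, and at 4.48, 4.41, 4.21 and 4.18 in SCC13-TLR4 with LPS. The 4 groups overlapped throughout. Its 8 to 10 usable spots differed within an array by an SD of 0.03 to 0.06, against an SD of 0.13 between arrays, and 5.98% of all tested probes had a smaller SD over the 15 arrays. ESRP1 was at 1.29, 1.36, 1.30 and 1.12 in untreated SCC13-pUNO, at 1.36, 1.02 and 1.00 in untreated SCC13-TLR4, at 1.28, 1.43, 0.80 and 1.04 in SCC13-pUNO with LPS, and at 1.35, 1.85, 1.01 and 1.02 in SCC13-TLR4 with LPS. One array, SCC13-TLR4 with LPS replicate 2, stood above all others for ESRP1, and the groups again overlapped.

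SNAI1 and SNAI2, zinc finger repressors of CDH1, were detected on all 15 arrays. SNAI1 was at 0.09, 0.27, 0.13 and -0.11 in untreated SCC13-pUNO, at -0.04, -0.16 and -0.20 in untreated SCC13-TLR4, at -0.03, -0.10, -0.13 and -0.15 in SCC13-pUNO with LPS, and at 0.04, 0.13, -0.14 and -0.31 in SCC13-TLR4 with LPS. The highest SNAI1 value was that of the array that goes against its label. SNAI2 was at 0.01, -0.54, 0.15 and -0.24 in untreated SCC13-pUNO, at -0.26, -0.28 and -0.04 in untreated SCC13-TLR4, at -0.71, -0.09, 0.04 and 0.05 in SCC13-pUNO with LPS, and at -0.08, -0.24, -0.53 and -0.04 in SCC13-TLR4 with LPS. For SNAI2, 1 array in each of 3 groups stood low, and the 4 group means lay within -0.22 and -0.16.

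TWIST1 and TWIST2, related basic helix-loop-helix factors, were detected on all 15 arrays by at least 1 probe each. TWIST1 was at 0.69, 0.69, 0.55 and 0.36 in untreated SCC13-pUNO, at 0.86, 0.49 and 0.30 in untreated SCC13-TLR4, at 0.68, 0.70, 0.16 and -0.08 in SCC13-pUNO with LPS, and at 0.66, 0.88, 0.72 and 0.20 in SCC13-TLR4 with LPS. A further TWIST1 probe for the same transcript was detected on 2 arrays only, at -3.28 on the array that goes against its label and at -2.95 in SCC13-pUNO with LPS replicate 4. The 2 probes of TWIST1 thus disagreed on whether the transcript was present. TWIST2 was at -2.84, -2.80, -2.75 and -2.72 in untreated SCC13-pUNO, at -2.69, -3.06 and -2.72 in untreated SCC13-TLR4, at -2.54, -2.62, -2.64 and -3.50 in SCC13-pUNO with LPS, and at -2.89, -2.43, -2.45 and -1.08 in SCC13-TLR4 with LPS. The last array of each LPS group stood apart, low in one and high in the other. The other TWIST2 probe was detected on all 15 arrays as well, and there those arrays read -3.54 and -3.21, within the range of -3.89 to -2.96 over all arrays.

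**Figure D1:**
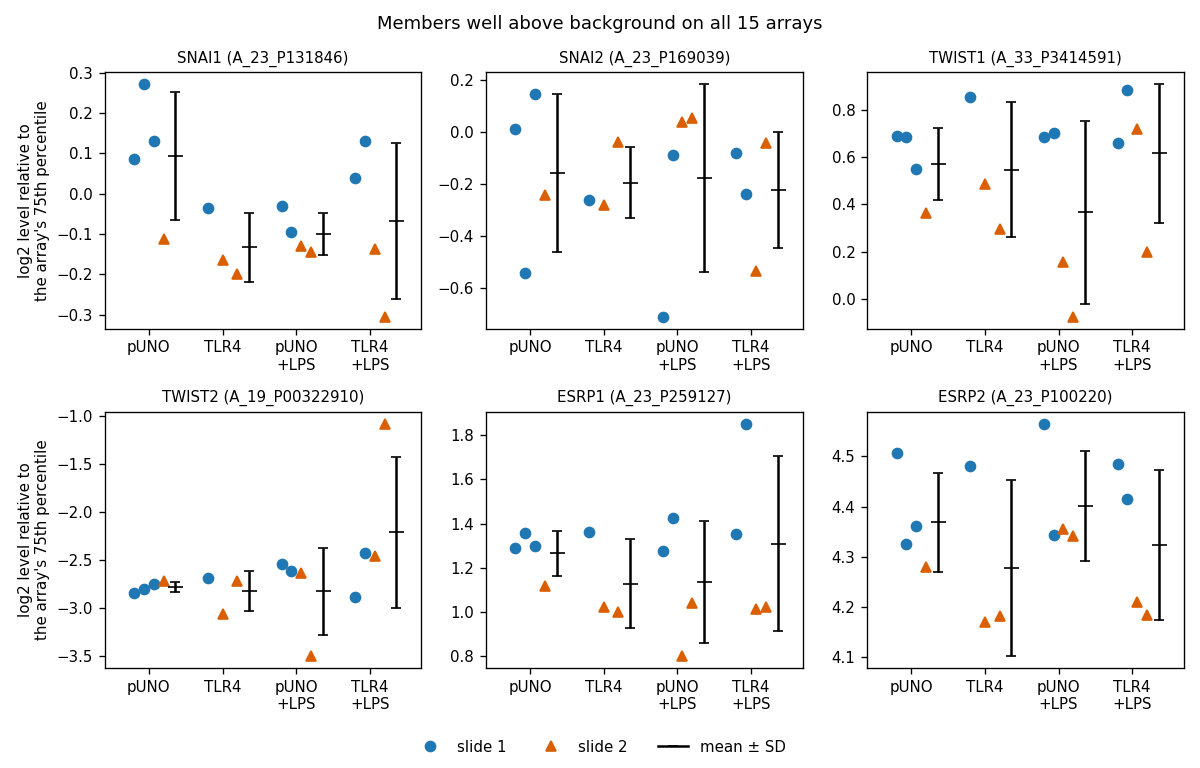
Level of the 6 detected genes on each of the 15 arrays, as log2 intensity over each array's 75th percentile (vertical axis, its range set for each gene), in the 4 groups along the horizontal axis. Circles are slide 1 and triangles slide 2, and black marks give the group mean with its SD. The 4 groups overlap for every gene, and triangles lie mostly below circles for SNAI1, TWIST1, ESRP1 and ESRP2.

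VIM, FN1, ZEB1 and ZEB2, which mark or drive the mesenchymal state, did not reach the rule for testing, which asked for detection on every array of at least 1 group. FN1 had 1 probe, assigned to 1 of its transcripts, and was detected on 0 of 15 arrays, with levels from -6.76 to -5.49. Whether that probe reads other FN1 transcripts was not examined. VIM was detected on 3 of 15 arrays, namely untreated SCC13-pUNO replicate 4 at -4.02 and SCC13-TLR4 with LPS replicates 2 and 4 at -3.37 and -4.30. Its levels on the other 12 arrays ran from -5.39 to -4.06. These values are bounds near the background, and no fold change was drawn from them.

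Of the 2 ZEB1 probes, one was detected on 0 arrays and the other on 8, which were 1 of 4 arrays of untreated SCC13-pUNO, 2 of 3 of untreated SCC13-TLR4, 2 of 4 of SCC13-pUNO with LPS and 3 of 4 of SCC13-TLR4 with LPS. Detection of ZEB1 went with the slide, at 2 of 8 arrays on slide 1 and 6 of 7 on slide 2, and the levels of the detected arrays ran from -4.08 to -3.07. ZEB2 was detected by 1 of its 3 probes on 1 array, SCC13-TLR4 with LPS replicate 1, at -3.81. An undetected probe bounds what that probe measured and does not show that the gene was silent: PTBP1, a splicing factor that most cells express, was also detected on no array.

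**Figure D2:**
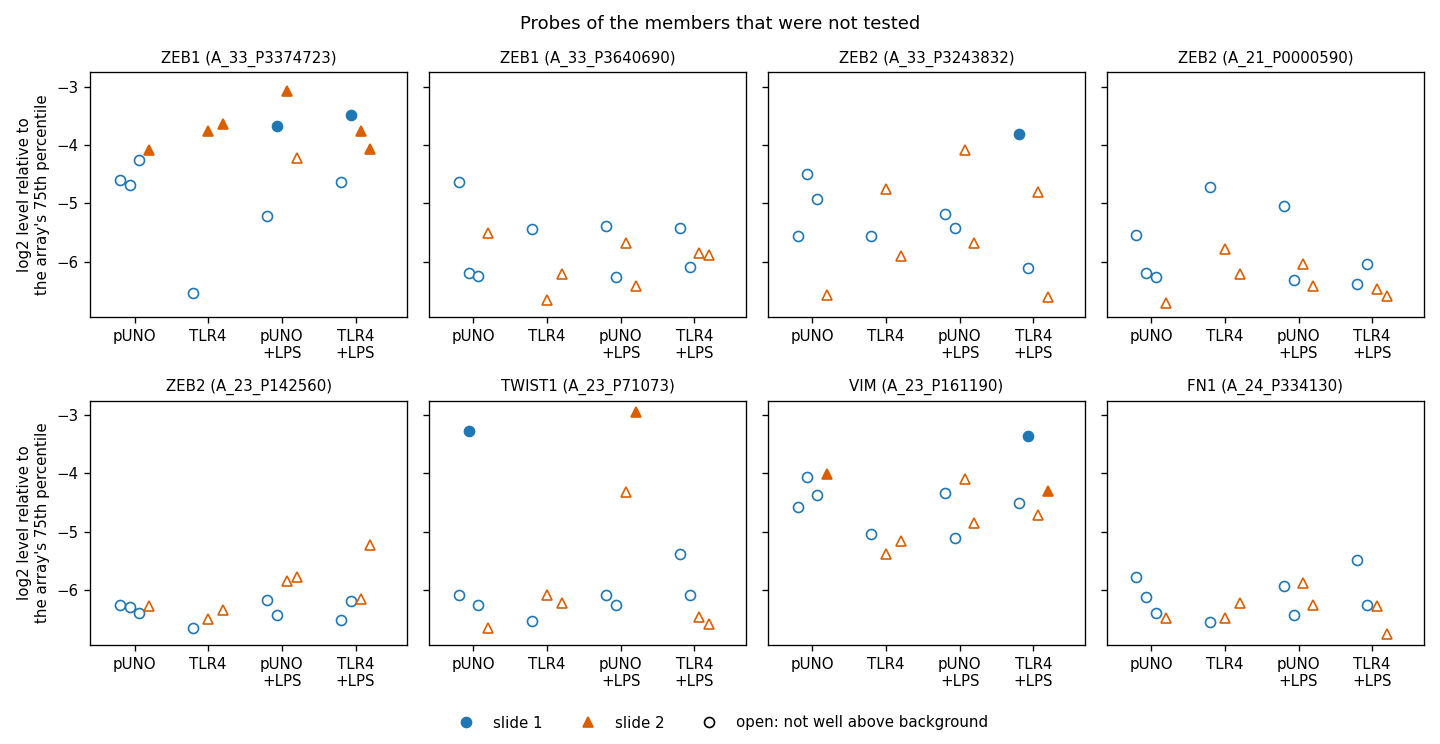
Level of the 8 probes that were not tested, as log2 intensity over each array's 75th percentile, for each array in the 4 groups. Filled symbols mark arrays where the probe was well above background, which holds for 0 arrays for FN1, 3 for VIM, 8 for 1 ZEB1 probe, 1 for 1 ZEB2 probe and 2 for the second TWIST1 probe.

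Windows from the RefSeq promoter table (GRCh38.p14) were examined for 5 of the 10 genes, namely ZEB1, ZEB2, TWIST2, VIM and FN1. No window was examined for the other 5 genes, which does not show that the table held none for them. The windows below are the 250 bases before the start, 5′ to 3′ on the strand of the gene, shown for VIM, detected on 3 arrays, FN1, detected on 0, and TWIST2, detected on all 15. Capitals mark CpG dinucleotides. The VIM window is chr10:17227991-17228240 on the plus strand, the FN1 window chr2:215436069-215436318 on the minus strand and the TWIST2 window chr2:238847835-238848084 on the plus strand.
VIM: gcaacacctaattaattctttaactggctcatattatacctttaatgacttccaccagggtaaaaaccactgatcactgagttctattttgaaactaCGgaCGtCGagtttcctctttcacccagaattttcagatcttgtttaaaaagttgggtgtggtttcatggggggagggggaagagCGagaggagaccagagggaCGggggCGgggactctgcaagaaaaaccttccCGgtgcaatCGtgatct
FN1: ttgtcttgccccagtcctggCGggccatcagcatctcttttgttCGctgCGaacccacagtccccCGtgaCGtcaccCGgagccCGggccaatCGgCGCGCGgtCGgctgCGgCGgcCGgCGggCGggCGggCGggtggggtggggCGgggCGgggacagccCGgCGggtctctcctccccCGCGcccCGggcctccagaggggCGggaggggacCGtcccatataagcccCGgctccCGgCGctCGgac
TWIST2: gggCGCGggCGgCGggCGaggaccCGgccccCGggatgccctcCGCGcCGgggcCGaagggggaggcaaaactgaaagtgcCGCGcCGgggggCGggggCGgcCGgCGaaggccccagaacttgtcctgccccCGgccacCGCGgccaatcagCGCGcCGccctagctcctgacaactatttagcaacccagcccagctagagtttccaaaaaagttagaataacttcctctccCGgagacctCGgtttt
FN1 held 32 CpGs at a GC content of 76.4%, TWIST2 26 at 68.4% and VIM 8 at 46.0%, against a median of 11 over all 35116 windows in the table. Of all windows, 90.5% had fewer CpGs than FN1, 80.4% fewer than TWIST2 and 43.7% fewer than VIM.

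The sequence CAGGTG, or CACCTG on the other strand, is the E-box that SNAI and ZEB proteins are known to bind. It was found in 17.5% of all 250-base windows. It was in none of the VIM, FN1, TWIST2 and ZEB2 windows and in 2 of the 7 ZEB1 windows, of which the one with 2 matches, chr10:31318966-31319215 on the plus strand, is printed with both matches in capitals.
ZEB1: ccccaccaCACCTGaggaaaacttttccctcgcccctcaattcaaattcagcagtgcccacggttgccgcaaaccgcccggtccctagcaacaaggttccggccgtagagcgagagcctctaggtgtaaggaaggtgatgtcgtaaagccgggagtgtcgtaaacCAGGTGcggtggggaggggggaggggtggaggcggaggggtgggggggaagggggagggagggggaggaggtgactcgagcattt
A match describes these letters only and is not evidence of binding.

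The first comparison asked how untreated SCC13-TLR4 differed from untreated SCC13-pUNO. None of the 7 tested probes passed limma's test (adjusted p of at least 0.999), and 0% of all 22660 tested probes did. TLR4 itself did not pass in this fit, at a log2 difference of 6.32 (limma adjusted p = 0.999). With LPS in both lines it did not pass either, at 8.86 (adjusted p = 0.322). Without the array that goes against its label, the untreated TLR4 difference was 8.41 and passed (adjusted p = 1.4e-05). A probe that did not pass is therefore not shown to be unchanged. None of the 7 had groups that did not overlap, against 3.72% of all probes. Among the 7, the difference furthest from 0 was that of SNAI1, at -0.23 on the log2 scale (SE 0.12, 95% interval -0.49 to 0.04). SNAI1 was lower in 11 of 12 pairs of arrays, with an exact two-sided permutation p of 0.0857. Without the array that goes against its label, the SNAI1 difference was -0.17 and its exact permutation p was 0.2, and with slide as a factor it was -0.14.

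The other genes differed by less. The log2 difference of ESRP1 was -0.14 (95% interval -0.57 to 0.30), that of ESRP2 -0.09 (-0.35 to 0.17), that of SNAI2 -0.04 (-0.48 to 0.41), that of TWIST1 -0.03 (-0.49 to 0.44) and that of TWIST2 -0.04 (-0.78 to 0.70). As folds, the interval of ESRP2 ran from 0.786 to 1.12, whereas that of TWIST2 ran from 0.582 to 1.62, so the data bound a change of ESRP2 more closely than one of TWIST2. Without the array that goes against its label these differences were -0.11 for ESRP1, -0.11 for ESRP2, -0.17 for SNAI2, 0.01 for TWIST1 and -0.05 for TWIST2. In that fit 7 of the 22660 tested probes passed limma's test, none of them a probe of these genes. With slide as a factor, the differences of TWIST1 and ESRP1 turned to 0.15 and 0.03.

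The second comparison asked the same with LPS in both lines. None of the 7 probes passed limma's test (adjusted p of at least 0.999), with 0% of all tested probes passing, and none had groups that did not overlap, against 1.28% of all probes. TWIST2 had the difference furthest from 0, at 0.61 on the log2 scale (SE 0.32, 95% interval -0.07 to 1.30), with an exact permutation p of 0.286. It was -0.08 between the arrays of slide 1 and 1.30 between those of slide 2, which hold both arrays that stood apart, and 0.24 without SCC13-TLR4 with LPS replicate 4. The other TWIST2 probe differed by 0.32 (SE 0.18, 95% interval -0.06 to 0.70), higher in 15 of 16 pairs, with an exact permutation p of 0.0571 and within-slide differences of 0.26 and 0.38.

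For the remaining genes with LPS, the log2 difference of SCC13-TLR4 from SCC13-pUNO was 0.25 for TWIST1 (95% interval -0.18 to 0.68), 0.17 for ESRP1 (-0.23 to 0.58), 0.03 for SNAI1 (-0.21 to 0.28), -0.05 for SNAI2 (-0.46 to 0.37) and -0.08 for ESRP2 (-0.32 to 0.16). The array that goes against its label is in neither group, so these differences do not move without it, but it enters the spread that all groups share. Without it, 10 of the 22660 tested probes passed limma's test in this comparison, and 22 with slide as a factor too, none of them a probe of these genes. The median over the 6 genes was 0.10, beside -0.01 over all tested probes. All intervals given for the 4 comparisons come from the fit without slide, so they hold the spread between slides as well. With slide as a factor the differences with LPS were the same. Their SE fell from 0.20 to 0.12 for TWIST1, from 0.19 to 0.11 for ESRP1 and from 0.11 to 0.07 for SNAI1 and ESRP2. It stayed at 0.19 for SNAI2 and went from 0.32 to 0.33 for TWIST2.

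The remaining pair of comparisons asked what 24 h of LPS did in each line. In SCC13-pUNO none of the 7 probes passed limma's test (adjusted p of at least 0.999) and none had groups that did not overlap, against 0% and 1.28% of all tested probes. The differences, LPS minus untreated, were -0.21 for TWIST1 (95% interval -0.64 to 0.23), -0.19 for SNAI1 (-0.44 to 0.05), -0.13 for ESRP1 (-0.53 to 0.27), -0.05 for TWIST2 (-0.73 to 0.64), -0.02 for SNAI2 (-0.43 to 0.39) and 0.03 for ESRP2 (-0.20 to 0.27). SNAI1 was lower with LPS in 14 of 16 pairs, with an exact permutation p of 0.0857. Within slide 1 its difference was -0.22, and within slide 2, which held 1 untreated array, it was -0.03. With slide as a factor it was -0.14. Without the array that goes against its label, SNAI1 was lower in 10 of 12 pairs with an exact permutation p of 0.143, and the difference was -0.13 for SNAI1, -0.17 for TWIST1, -0.10 for ESRP1, -0.06 for TWIST2, -0.15 for SNAI2 and 0.02 for ESRP2.

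In SCC13-TLR4, the line that carries the LPS receptor, LPS likewise left none of the 7 probes past limma's test (adjusted p of at least 0.999) and none with groups that did not overlap, against 0% and 1.79% of all tested probes. The differences were 0.61 for TWIST2 (95% interval -0.13 to 1.35), 0.18 for ESRP1 (-0.25 to 0.62), 0.07 for TWIST1 (-0.40 to 0.54), 0.06 for SNAI1 (-0.20 to 0.33), 0.05 for ESRP2 (-0.21 to 0.30) and -0.03 for SNAI2 (-0.48 to 0.42). The TWIST2 difference was 0.03 within slide 1 and 1.12 within slide 2, and the other TWIST2 probe differed by 0.20. Both LPS comparisons share samples with the line comparisons, so the 4 sets of values are not independent.

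Whether the difference between the lines changed with LPS was tested as an interaction. It ran from -0.01 for SNAI2 (SE 0.28) to 0.66 for TWIST2 (SE 0.47), and no probe passed limma's test (adjusted p of 0.9998, 0% of all tested probes). It ran, when the array that goes against its label was left out, from 0.03 for ESRP2 (SE 0.18) to 0.66 for TWIST2 (SE 0.50), with 0 probes passing. Over the 4 comparisons of groups, 0 of the 28 tests on these probes had an unadjusted limma p under 0.05. Over all tested probes, the share with such a p was 2.48% and 2.71% between the lines, untreated and with LPS, and 2.47% and 1.33% for LPS in SCC13-pUNO and in SCC13-TLR4. An exact permutation test can give no p below 0.0286 for these groups, and none below 0.1 where only 3 arrays a side remain, as between the untreated lines without the array that goes against its label.

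**Figure D3:**
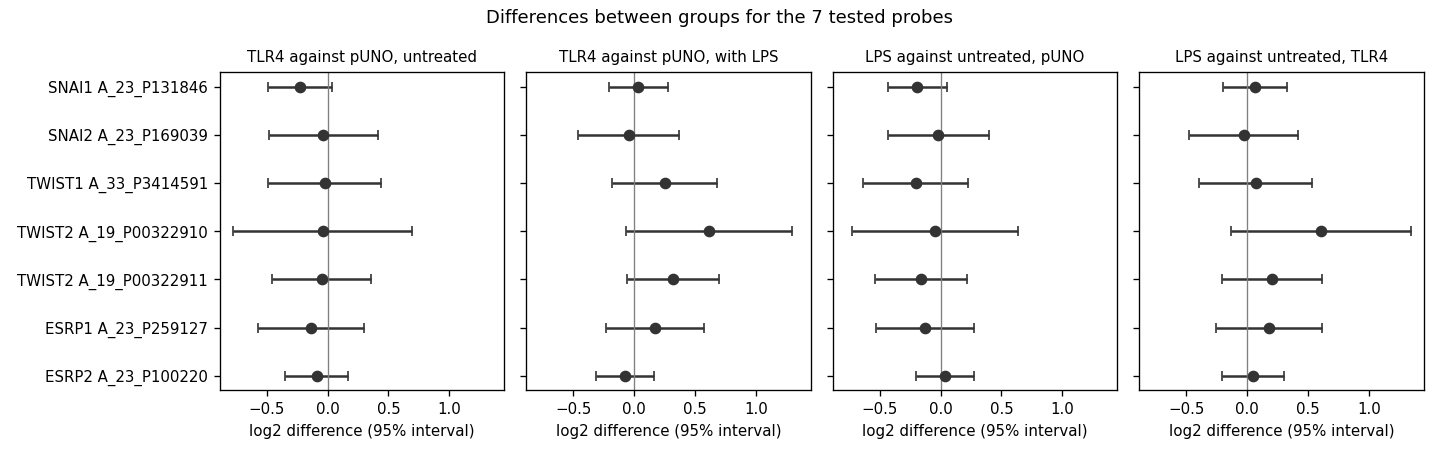
Log2 difference between groups (horizontal axis) with its 95% interval from limma, without slide in the model, for the 7 tested probes, in the 4 comparisons. Every interval includes 0, and the TWIST2 probe with the brighter signal has the widest ones.

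A difference that did separate the arrays was the slide. With the groups in the model, slide 2 was below slide 1 for TWIST1 by a log2 difference of -0.43 (SE 0.09, limma adjusted p = 0.00219), for ESRP1 by -0.41 (SE 0.08, adjusted p = 0.00179), for SNAI1 by -0.20 (SE 0.06, adjusted p = 0.0102) and for ESRP2 by -0.19 (SE 0.06, adjusted p = 0.0122). These 4 of 7 tested probes compare with 34.7% of all tested probes that were lower on slide 2 and 51.8% that differed in either direction, with a median over all probes of -0.13. SNAI2 (0.09, SE 0.15) and both TWIST2 probes (0.10, SE 0.25, and -0.15, SE 0.13) did not pass the test.

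For TWIST1, ESRP1 and ESRP2 the slide difference was larger in size than each difference between groups, and for SNAI1 it was -0.20 beside -0.23. ESRP1 had levels of 1.28 to 1.85 on the 8 arrays of slide 1 and of 0.80 to 1.12 on the 7 of slide 2, with no overlap. SNAI1 ran from -0.10 to 0.27 on slide 1 and from -0.31 to -0.11 on slide 2, TWIST1 from 0.55 to 0.88 and from -0.08 to 0.72, and ESRP2 from 4.33 to 4.57 and from 4.17 to 4.36. Of the 4 genes, TWIST1 and ESRP2 overlapped between the slides. The slide call of SNAI1 was lost with another background correction (limma adjusted p = 0.249), and that of ESRP2 with quantile scaling (adjusted p = 0.221) and without untreated SCC13-TLR4 replicate 1 (adjusted p = 0.0536). Both were lost when dim probes were tested as well (adjusted p = 0.0550 for SNAI1 and 0.0639 for ESRP2). Without the array that goes against its label, all 4 calls were kept.

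The slide also entered how the genes varied together. Over the 15 arrays, Pearson's r among SNAI1, TWIST1, ESRP1 and ESRP2 ran from 0.46 to 0.74 as measured. Once the mean of each slide was subtracted, it ran from -0.30 to 0.33. On the 14 arrays without the one that goes against its label, these ranges were 0.48 to 0.73 and -0.34 to 0.33. The largest r in size between 2 of the 6 genes was then -0.58, between SNAI2 and TWIST1 (Spearman's rho -0.61), and -0.65 on the 14 arrays. These correlations describe 15 arrays that share lines, treatments and slides, and carry no test.

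**Figure D4:**
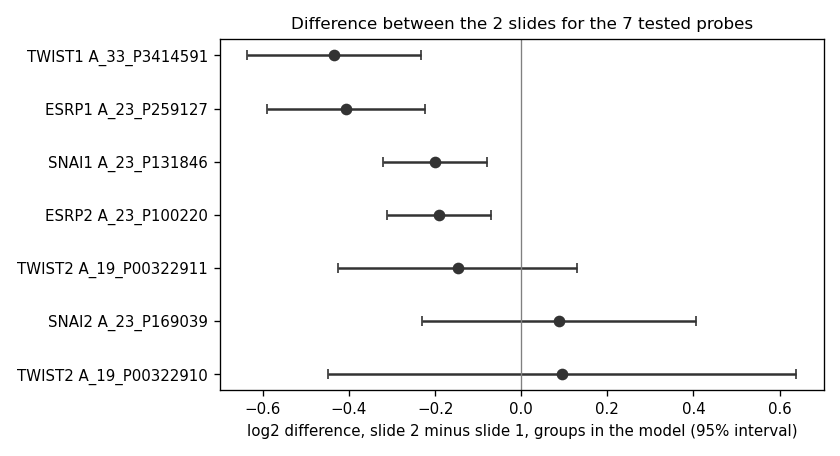
Log2 difference between slide 2 and slide 1 (horizontal axis) with its 95% interval, from a limma model that holds the 4 groups, for the 7 tested probes. The intervals of TWIST1, ESRP1, SNAI1 and ESRP2 lie below 0, and those of SNAI2 and both TWIST2 probes include it.

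Genes around these regulators were counted in 2 lists, one epithelial and one mesenchymal. Of 26 epithelial genes (junction proteins, keratins and epithelial transcription factors), 25 were detected on all 15 arrays and OCLN, a tight junction protein, on 9. CDH1, the target that SNAI, ZEB and TWIST factors repress, was at 2.84 ± 0.15 (SD, n = 15) and EPCAM, an epithelial adhesion protein, at 5.67 ± 0.12 (SD, n = 15). Of 44 mesenchymal genes, 23 were detected on all 15 arrays and 16 on none, among them COL1A2, COL3A1 and POSTN of the extracellular matrix and the transcription factors PRRX1 and FOXC2. CDH2, which encodes N-cadherin, was detected on all 15 arrays at -0.995 ± 0.232 (SD, n = 15), as were SPARC, TGFBI and S100A4.

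**Figure D5:**
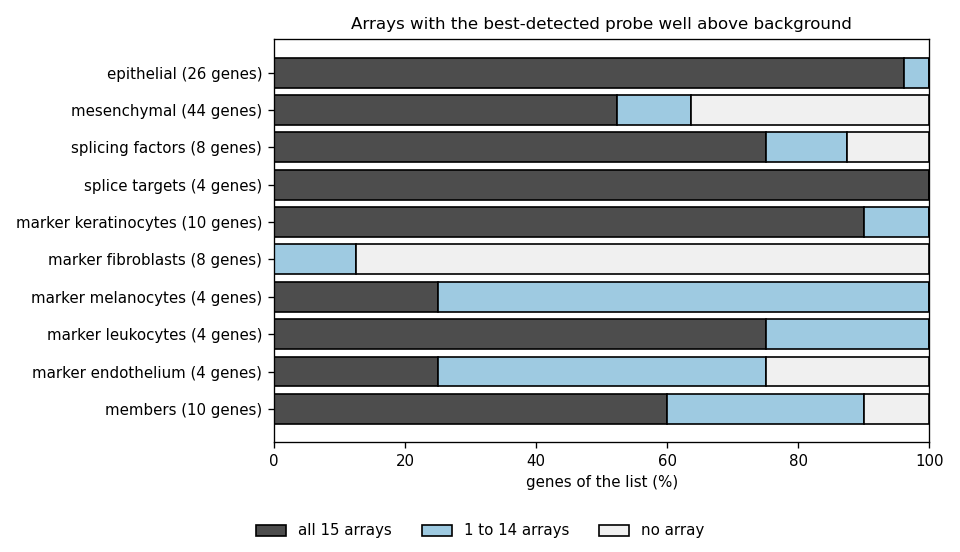
Share of the genes in each list (horizontal axis, percent) whose best-detected probe was well above background on all 15 arrays, on some, or on none. Of the epithelial list 25 of 26 genes fall in the first class, of the mesenchymal list 23 of 44, and of the fibroblast markers 0 of 8.

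No gene of either list passed limma's test in any of the 4 comparisons (adjusted p of at least 0.999), among 26 epithelial and 25 mesenchymal genes tested. CDH1 differed between the lines by -0.10 (SE 0.13) untreated and by -0.17 (SE 0.12) with LPS. The median log2 difference between the lines was -0.06 over the epithelial list and -0.05 over the mesenchymal list untreated, beside -0.02 over all tested probes, and -0.02 and 0.02 with LPS, beside -0.01. Groups that did not overlap were found untreated for 3 of the 51 tested genes of both lists, against 3.72% of all tested probes. They were CLDN1, a tight junction protein (0.39), TAGLN, an actin-binding protein (0.44), and SNAI3, a relative of SNAI1 detected on 3 arrays (0.73). The groups of SNAI3 also did not overlap in SCC13-TLR4 with LPS against untreated (-0.74), where 1.79% of all tested probes did the same. SNAI3 met the rule for testing only through untreated SCC13-TLR4, the group where it was highest. Its mean was -3.73 there and -4.76 to -4.46 in the other groups, where it was not detected. Its lack of overlap was thus favoured by that rule, and its differences rest on values near the background. CLDN1, TAGLN and SNAI3 were chosen after their values were seen. Without the array that goes against its label, the untreated difference was 0.49 for CLDN1, 0.43 for TAGLN, 0.73 for SNAI3 and -0.13 for CDH1, the list medians were -0.03 and -0.02, and still no gene of either list passed (limma adjusted p of at least 0.9997). The genes whose groups did not overlap then numbered 6 of 51, against 7.24% of all tested probes, with OCLN (0.52), LLGL2 (-0.24) and ACTA2 (0.27) added, likewise named from their values. OCLN lay near the background as well, at a mean of -4.05 with detection on 9 arrays. Its mean was highest in untreated SCC13-TLR4, at -3.87, and was -4.19 to -3.92 in the other groups. Through which group OCLN met the rule for testing was not examined, so its lack of overlap may have been favoured by that rule too. Between the slides, 13 of the 26 epithelial and 14 of the 25 mesenchymal genes passed the test, 10 and 12 of them lower on slide 2. Of all tested probes, 51.8% passed it and 34.7% passed it with a lower level on slide 2, so the lists did not stand out.

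The transcripts that ESRP1 and ESRP2 splice, CD44, FGFR2, CTNND1 and ENAH, were detected on all 15 arrays, and none of the 4 passed limma's test in any comparison of groups (adjusted p of at least 0.999). CTNND1 had groups that did not overlap in SCC13-TLR4 with LPS against untreated, at -0.10, where 1.79% of all tested probes had such groups. The 4 differences between the lines ran from -0.11 to 0.03 untreated and from -0.11 to 0.00 with LPS. These are levels of the probed transcript, and splice forms were not told apart here. Of 8 other splicing factors, 7 were tested and none passed. RBFOX2, a splicing factor known in epithelial-mesenchymal transition, differed between the lines by 0.08 (SE 0.12) untreated and 0.09 (SE 0.11) with LPS.

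Finally, the genes whose pattern over the 15 arrays was most like each regulator were listed after the slide means had been subtracted, among 19172 probes. The nearest to SNAI2 was TRPT1 (Pearson's r = 0.96), to ESRP2 EIF5A2 (0.94), to ESRP1 ATG13 (0.92), to TWIST1 ILDR1 (0.90), to TWIST2 HBG1 (0.86) and to SNAI1 LRRC57 (0.78). Spearman's rho of these pairs was, in the same order, 0.91, 0.91, 0.81, 0.93, 0.69 and 0.68. For TWIST2, SCC13-TLR4 with LPS replicate 4 stood above all other arrays, at -1.08, and its part in r was not tested. On the 14 arrays without the one that goes against its label, Pearson's r of these pairs ran from 0.73 to 0.95. None of the nearest genes was another of the 10 genes. With so many probes and 15 arrays, such values describe likeness in these data only.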

How the data were processed

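Values were taken from 15 Agilent SurePrint G3 Human 8x60K arrays. Per the file headers, the authors deposited spot intensity values made with Feature Extraction 10.7.3.1, which subtracts background, without normalization between arrays, and the deposited series matrix held the same intensity at all 62976 spots. The header names build hg19. The methods give a threshold, an FDR-adjusted p under 0.05 with an absolute log fold change over 2; the normalization and the test behind it are not given in the sources used here. The 75th percentile of intensity ran from 192 to 420 per array, and the software marked 47.1% to 56.2% of spots as well above background. Precision is limited by the number of arrays.

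From each log2 intensity the 75th percentile of that array's non-control spots was subtracted. The 300 to 646 outlier spots of an array were dropped, and the spots of a probe averaged. Probes were named through their accessions with a RefSeq table, which named 28170 of 50599 probes. To be tested, a probe had to be well above background throughout 1 or more groups, which left 22660 probes, 19454 of them on all 15 arrays. All 4 groups were fitted together with limma 3.58.1 in R 4.3.3, with Benjamini-Hochberg adjustment over all tested probes and a threshold of 0.05; the fit was tested on simulated data. Exact permutation tests were two-sided. For a gene with several tested probes, the one with the highest mean was used and the other given beside it. The genes named were the 10 members with all their probes, and, for each, those most like it. Levels within groups correlated across probes with r of 0.936 to 0.994, and no 2 arrays were identical.

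Groups and replicate numbers came from the labels. The methods speak of tetraplicates, and 3 arrays of untreated SCC13-TLR4 were analysed here. Between the lines with LPS, same-numbered arrays deviated together (r of 0.38 to 0.62 in the 4 pairs), and there they also share a slide. In the other comparisons, same-numbered arrays had r of 0.20 to 0.58 on the same slide and of -0.40 to -0.19 on different slides. With LPS, arrays of different number on the same slide also deviated together (r of 0.31 to 0.39). Between the lines with LPS, a pairing by number was therefore not told apart from the slide. The replicate block was run as an alternative only, and it left 0 of the 7 probes called. The members and gene lists were chosen with earlier results of these data known. Alternatives were another scaling, background correction, filter or set of arrays, outlier spots kept, array weights, slide or replicate number as a factor, and each array left out.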

Additional observations from a re-analysis of the deposited data

Results flagged for a closer look

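In groups of 4 arrays, 1 array far from the other 3 was marked where its gap took up most of the range of the group (Dixon's criterion). Of 21 such groups examined, 3 were marked, where chance alone gives 1.05. TWIST2 was at -3.50 in SCC13-pUNO with LPS replicate 4, against -2.64 to -2.54 on the other 3 arrays. ESRP2 was at 4.57 in SCC13-pUNO with LPS replicate 1, against 4.34 to 4.36. TLR4 was at -4.74 in SCC13-pUNO with LPS replicate 4, against -6.26 to -6.09, all of them not well above background. The same array held the TWIST2 and TLR4 values.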

How the results depend on the processing

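The count of members called was 0 of the 7 tested probes in each of the 4 comparisons of groups and in the interaction under every alternative run, the replicate block and the fits without the array that goes against its label included. Over 600 values of single genes under the alternatives, the smallest adjusted p was 0.0588. None of the differences below passed the test in the main setting, and the cause of a change in sign was not tested. With normexp background correction, SNAI1 turned to -0.072 between the lines with LPS and to -0.048 for LPS in SCC13-TLR4, SNAI2 to 0.035 and 0.072 in the same comparisons, and TWIST2 to 0.092 for LPS in SCC13-pUNO. With slide as a factor, TWIST1 turned to 0.15 between the untreated lines and to -0.0032 for LPS in SCC13-TLR4, and ESRP1 to 0.032 between the untreated lines. Without the array that goes against its label, TWIST1 turned to 0.012 between the untreated lines, and with slide as a factor as well, TWIST1 was 0.16 there and -0.0031 for LPS in SCC13-TLR4, and ESRP1 was 0.029. With the replicate block, TWIST2 turned to 0.014 between the untreated lines, and no call changed. The slide difference of TWIST2 turned to -0.047 with quantile scaling and to -0.026 as a mean over its probes.

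Leaving out each array in turn, the line difference untreated ran from -0.17 to 0.064 for SNAI2, from -0.18 to 0.10 for TWIST1 and from -0.11 to 0.076 for TWIST2. With LPS it ran from -0.034 to 0.11 for SNAI1, from -0.22 to 0.057 for SNAI2 and from -0.0069 to 0.27 for ESRP1, and for TWIST2, which kept its sign, from 0.24 to 0.84, lowest without SCC13-TLR4 with LPS replicate 4. The LPS difference in SCC13-pUNO ran from -0.15 to 0.16 for SNAI2, from -0.14 to 0.18 for TWIST2 and from -0.022 to 0.079 for ESRP2. In SCC13-TLR4 it ran from -0.0015 to 0.14 for SNAI1, from -0.090 to 0.074 for SNAI2, from -0.056 to 0.22 for TWIST1 and from -0.0079 to 0.15 for ESRP2. The slide difference ran from -0.018 to 0.16 for SNAI2 and from -0.14 to 0.25 for TWIST2, and 3 or 4 of the 7 probes passed its test. VIM, FN1, ZEB1 and ZEB2 were too close to background for any difference to be drawn.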
